A study of Homo sapiens with 6 samples.

Results

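Ribosome biogenesis and nucleolar factors are the proteins that transcribe ribosomal RNA, modify and cut it, and assemble it with ribosomal proteins into subunits. The set had 39 genes chosen by name, and 31 of them were measured, out of 11963 genes on the array. A gene counted as measured when a probe set carried its symbol and no other, and its brightest probe set over all 6 arrays represented it. The other 8 (NOP56, NOP58, DKC1, NOB1, BOP1, EBNA1BP2, GNL3 and DDX18) were not analysed here. Of these, NOP56, DKC1 and BOP1 lie on probe sets that carry several symbols, snoRNAs or microRNAs among them.

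The data came from WI-38 cells, a normal human diploid fibroblast strain from fetal lung, kept at 3% oxygen and infected with retroviral vectors. The control group had 3 samples of growing fibroblasts labelled wild type. The RASv12 group had 3 samples of fibroblasts that overexpressed RASv12, a constitutively active RAS, and were labelled senescent. RASv12 and growth state thus differed together between the groups, and their effects cannot be told apart. Each sample was read on 1 array, after 2 rounds of RNA amplification. The RAS gene used, the days between infection and harvest, any empty vector in controls and the cultures behind the replicates are not given in the labels. The spread that p-values rest on here may thus be technical. Control samples were labelled Cy5 and RASv12 samples Cy3, so dye and group cannot be told apart if both dyes were used.

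Ribosomes are made in the nucleolus. RNA polymerase I copies the ribosomal DNA into a long precursor, small nucleolar ribonucleoproteins (snoRNPs) guide its methylation and pseudouridylation, and large assembly complexes cut and fold it into the small and large subunits. Growing fibroblasts need this pathway to double their protein content, and RAS, ERK and MYC signalling are known to stimulate it.

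Among the small and large subunit assembly factors, 12 of 18 measured members rose in RASv12 cells. NCL, NPM1 and NPM3, grouped as nucleolar chaperones and structure, were not called, while NOLC1, a nucleolar chaperone grouped with the snoRNPs, rose. Of the 31 measured members, 17 were higher in RASv12 cells (54.8%), against 14.0% of all genes, and none was lower, against 15.5% of all genes. At an unadjusted p under 0.05, 18 of the 31 were higher, against 19.5% of all genes, and 1 of the 31 was lower, against 19.8%. These calls came from limma at an adjusted p (Benjamini-Hochberg over all genes) under 0.05. The members had a median log2 change of 0.58, against 0.020 for all genes. At least a 2-fold rise was called for 5 members (16.1%), against 3.53% of all genes, and a fall of that size for none, against 5.09%. The deposited intensities of the groups did not overlap, with RASv12 higher, for 19 of the 31 members, against 19.7% of all genes. They lay apart with RASv12 lower for 1 of the 31, against 22.0%.

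**Figure D1:**
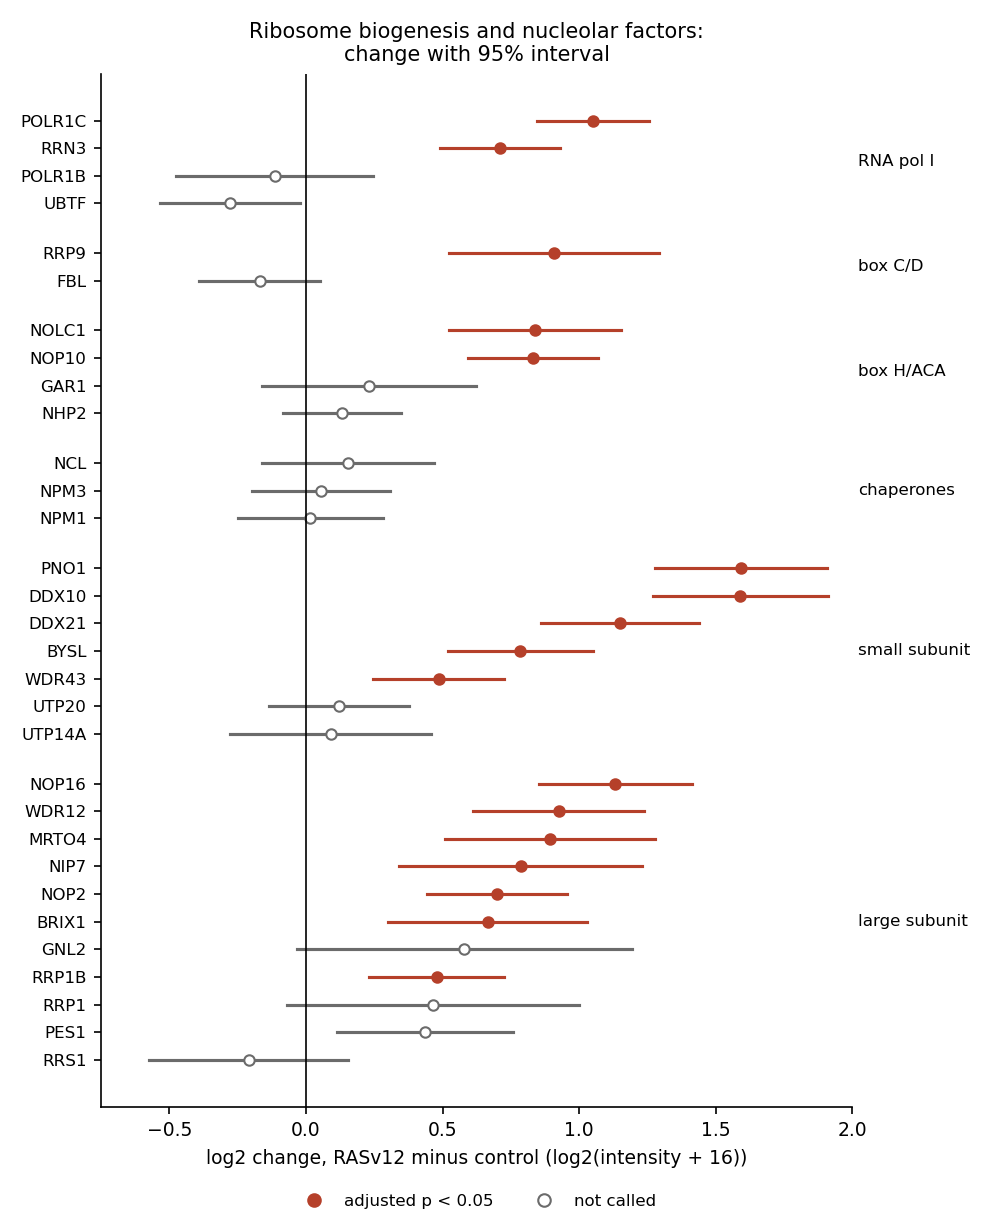
Log2 change of each of the 31 measured members, RASv12 minus control, on the x axis, with its 95% interval as a line, grouped by role. Filled points are the 17 members called at an adjusted p under 0.05, all above 0. NPM1, NPM3 and NCL, drawn as the chaperones, lie between 0.015 and 0.15, and NOLC1 is drawn with box H/ACA. The interval of PES1 lies above 0 although its adjusted p was 0.0503.

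All values are log2 changes of intensity plus a pseudocount of 16, given with their standard error (SE) from a fit with n = 3 samples per group. The pseudocount compresses the change of dim genes. Arrays had been scaled to a common mean brightness before deposit, so a value is a share of an array's signal and not an amount per cell. In these bulk samples, fewer cells that express a gene and less of its RNA per cell cannot be told apart.

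The whole table gives the setting of these changes. Log2 values of arrays of the same group correlated at 0.975 to 0.987, and those of different groups at 0.912 to 0.928. HRAS, a RAS gene, was read at 222, 189 and 234 in control samples and 816, 753 and 990 in RASv12 samples. Of 10 fibroblast markers, all 10 lay above the low bacterial controls (27.98, the highest intensity of those control probe sets) on every array, and 8 fell. Their summed intensity was 19253 to 21895 in control samples and 7916 to 9341 in RASv12 samples. Of 8 epithelial, 6 endothelial and 6 measured leukocyte markers, none lay above that level on all 6 arrays, and 5, 3 and 3 lay at or under it on all 6. Summed intensity was 141 to 159 in control and 94.1 to 119 in RASv12 samples for the epithelial list, 98.2 to 128 and 101 to 157 for the endothelial, and 36.8 to 64.1 and 50.6 to 108 for the leukocyte. Among them KRT19 and TEK fell, and TIE1 and CSF1R rose. TIE1 lay above the low bacterial controls in all 3 RASv12 samples and in no control sample. CLDN4, SFTPC, PECAM1, CD3E and ITGAM lay above them on some arrays, as did KRT19, TEK and CSF1R. CDH1, EPCAM, KRT5, KRT14, SCGB1A1, CDH5, CLDN5, VWF, PTPRC, CD14 and LYZ were at or under that level throughout. The part of these markers in the results was not tested. Hybridization controls, RNAs added in equal amount, read lower with RASv12 (18 of 18 probe sets, mean log2 change -0.34), and the choice to scale to them moves every change. Scaling to them moved the median of all genes to 0.20, and rises from 47.3% of all calls to 72.9%. Under that scaling 24 of the 31 members rose and none fell, against 23.6% and 8.8% of all genes. The median of the members was 0.85, or 0.65 above the median of all genes.

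RNA polymerase I transcription was represented by 4 members, of which 2 rose, against 14.0% of all genes. POLR1C, a subunit shared by RNA polymerases I and III, was read at 103, 98.4 and 98.8 in control samples and 229, 213 and 220 in RASv12 samples. The control samples were nearly equal, and every RASv12 sample was above all of them. Its mean intensity went from 100.2 ± 2.80 to 221 ± 8.36 (SD, n = 3), a log2 change of 1.05 ± 0.087 (SE, limma adjusted p = 1.8e-04). The second POLR1C probe set read 0.66 and was not called (adjusted p over probe sets = 0.067).

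RRN3, the initiation factor that brings the polymerase to the ribosomal DNA promoter, was read at 47.5, 44.1 and 48.5 in control samples and 82.5, 85.8 and 79.6 in RASv12 samples. The groups were well apart, and it rose by 0.71 ± 0.093 (limma adjusted p = 0.0015). Pseudogenes RRN3P1 and RRN3P2 share another RRN3 probe set, so the RRN3 signal itself may include them. The other members of this group were not called. POLR1B, the second-largest subunit of RNA polymerase I, was read at 66.9, 44.2 and 41.6 in control samples and 39.99, 46.1 and 42.2 in RASv12 samples. The groups overlapped, with control replicate 1 the highest, and the log2 change was -0.11 (limma adjusted p = 0.64, 95% interval -0.47 to 0.25). Its sign turned with scaling to the hybridization controls (0.082) and without control replicate 1 (0.041). UBTF, the upstream binding factor that keeps ribosomal genes open, was read at 96.7, 98.5 and 99.0 in control samples and 83.6, 71.6 and 69.2 in RASv12 samples. It was the member whose RASv12 samples all lay below the controls, at -0.28 ± 0.11 (limma adjusted p = 0.10). Without RASv12 replicate 1 it was called lower, at -0.36 (limma adjusted p = 0.047), and its dimmer second probe set read 0.15.

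**Figure D2:**
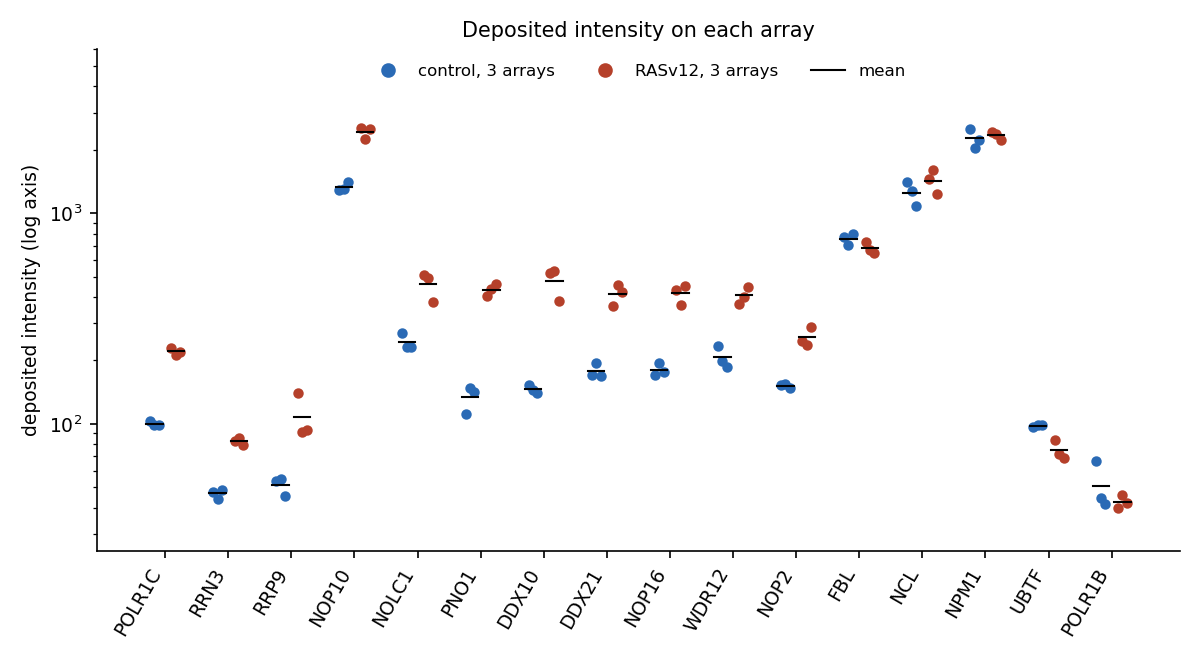
Deposited intensity (log axis) of 16 members on each of the 3 control arrays (blue) and 3 RASv12 arrays (red), with the group mean as a line. The groups are apart from POLR1C through NOP2, overlap for FBL, NCL, NPM1 and POLR1B, and lie apart the other way for UBTF; heights are not comparable between genes.

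Box C/D snoRNPs carry out the 2′-O-methylation of ribosomal RNA, and 2 of their proteins were measured. FBL, fibrillarin, the methyltransferase of the complex, was read at 773, 703 and 792 in control samples and 730, 668 and 645 in RASv12 samples. RASv12 replicate 1 lay above control replicate 2, so the groups overlapped. The log2 change was -0.17 ± 0.093 (limma adjusted p = 0.23, 95% interval -0.39 to 0.050), and it turned to 0.18 with scaling to the hybridization controls (limma adjusted p = 0.21).

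RRP9, a protein specific to the U3 snoRNP that starts the cutting of the precursor, was read at 53.3, 54.7 and 45.5 in control samples and 140, 91.2 and 93.1 in RASv12 samples. RASv12 replicate 1 was the highest, and all 3 lay above the controls. RRP9 rose by 0.91 ± 0.16 (limma adjusted p = 0.0058).

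Box H/ACA snoRNPs convert uridine to pseudouridine in ribosomal RNA, and 2 of 4 measured proteins of this group rose, against 14.0% of all genes. NOP10, the smallest core protein, was read at 1292, 1305 and 1401 in control samples and 2524, 2257 and 2520 in RASv12 samples. Its groups lay far apart, with a rise of 0.83 ± 0.10 (limma adjusted p = 0.0010). NOLC1, a nucleolar chaperone that binds snoRNPs, was read at 270, 232 and 232 in control samples and 507, 493 and 378 in RASv12 samples, a rise of 0.84 ± 0.13 (limma adjusted p = 0.0035). All 3 of its probe sets were called higher, with log2 changes from 0.73 to 1.05. The core proteins NHP2 and GAR1 did not follow NOP10 past the threshold. NHP2 had a log2 change of 0.13 (limma adjusted p = 0.34, 95% interval -0.084 to 0.35), although every RASv12 intensity (677 to 762) was above every control intensity (617 to 663). GAR1 had 0.23 (limma adjusted p = 0.36, 95% interval -0.16 to 0.62), with overlapping groups. NOP10 and NHP2 sit in one complex, and whether their changes differed was not tested.

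Nucleolar chaperones other than NOLC1, among the most abundant proteins of the nucleolus, were measured for 3 members. None of these passed in either direction, at an adjusted p or at an unadjusted p under 0.05. Of all genes, 29.5% passed in either direction at an adjusted p under 0.05. At an unadjusted p under 0.05, 19.5% of all genes were higher and 19.8% lower. NCL, nucleolin, which binds nascent ribosomal RNA, was read at 1406, 1272 and 1082 in control samples and 1445, 1596 and 1233 in RASv12 samples. The groups overlapped, at a log2 change of 0.15 ± 0.13 (limma adjusted p = 0.46, 95% interval -0.16 to 0.47). NPM1, nucleophosmin, a histone and ribosome chaperone that shuttles to the cytoplasm, was read at 2522, 2048 and 2236 in control samples and 2434, 2372 and 2229 in RASv12 samples. Its groups overlapped as well, at 0.015 ± 0.11 (limma adjusted p = 0.94, 95% interval -0.25 to 0.28), and its other probe sets read 0.17 and 0.065. NPM3, its relative, had 0.054 (limma adjusted p = 0.76). With scaling to the hybridization controls NCL (0.52), NPM1 (0.39) and NHP2 (0.49) were called higher. Their position near 0 thus depends on the scaling, and which scaling is closer to RNA per cell was not tested.

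Small subunit factors rose in 5 of 7 measured members (71.4%), against 14.0% of all genes. PNO1 and DDX10 had the largest changes of all 31 measured members. PNO1, an RNA-binding protein that guides the last cuts of the small subunit RNA, was read at 112, 148 and 142 in control samples and 403, 437 and 459 in RASv12 samples. The lowest RASv12 sample was well above the highest control, and PNO1 rose by 1.59 ± 0.13 (limma adjusted p = 1.8e-04). Both of its probe sets were called, the second at 1.49. DDX10, an RNA helicase of the small subunit processome, was read at 154, 144 and 140 in control samples and 522, 530 and 382 in RASv12 samples. RASv12 replicate 3 was the lowest of its group and still above every control, and DDX10 rose by 1.59 ± 0.14 (limma adjusted p = 2.0e-04).

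DDX21, a helicase that acts both on polymerase I transcription and on snoRNA release, was read at 170, 195 and 168 in control samples and 363, 455 and 423 in RASv12 samples. It rose by 1.15 ± 0.12 (limma adjusted p = 5.8e-04), with no overlap. BYSL, bystin, an assembly factor of the pre-40S particle, rose by 0.79, and WDR43, a subunit of the early processome, by 0.49 (limma adjusted p = 0.0022 and 0.011). For both, each RASv12 sample was above each control sample. The large scaffold UTP20 (0.12) and the processome protein UTP14A (0.090) did not pass (limma adjusted p = 0.47 and 0.73). Their groups overlapped, with 95% intervals of -0.14 to 0.38 and -0.28 to 0.46.

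Large subunit factors rose in 7 of 11 measured members (63.6%), against 14.0% of all genes. NOP16, a protein of the early pre-60S particle, was read at 171, 195 and 176 in control samples and 434, 366 and 451 in RASv12 samples. It rose by 1.13 ± 0.12 (limma adjusted p = 5.1e-04). Its next brightest probe set rose by 1.25, while 2 dimmer ones (0.40 and 0.12) were not called and had readings at or under the low bacterial controls. WDR12, which forms the PeBoW complex with PES1 and BOP1, was read at 234, 199 and 187 in control samples and 372, 400 and 448 in RASv12 samples. The groups did not overlap, and it rose by 0.92 ± 0.13 (limma adjusted p = 0.0022). PES1, its partner, was read at 131, 153 and 152 in control samples and 218, 224 and 166 in RASv12 samples. No RASv12 sample lay within the controls, but replicate 3 was close to them, and at 0.44 ± 0.14 PES1 did not pass (limma adjusted p = 0.0503). Without RASv12 replicate 3 it passed, at 0.57 (limma adjusted p = 0.015), and it also passed in 6 of the other settings tried, at adjusted p from 0.0041 to 0.044.

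NOP2, a methyltransferase of 28S ribosomal RNA, was read at 152, 154 and 149 in control samples and 246, 238 and 288 in RASv12 samples. The control samples were nearly equal and all RASv12 samples higher, a rise of 0.70 ± 0.11 (limma adjusted p = 0.0032). MRTO4, a nuclear relative of the ribosomal stalk protein that holds its place on the pre-60S particle, rose by 0.89, and RRP1B, a nucleolar protein of early pre-60S particles, by 0.48 (limma adjusted p = 0.0063 and 0.013). The dimmer probe set of RRP1B read 0.80 and was not called. NIP7 and BRIX1, further pre-60S factors, rose by 0.79 and 0.66 (limma adjusted p = 0.019 and 0.017) from low intensities. BRIX1 lay above the low bacterial controls in 2 of 3 control samples and in all RASv12 samples. NIP7 lost its call without control replicate 2 or 3 or RASv12 replicate 2 or 3, at adjusted p from 0.054 to 0.069, and BRIX1 without control replicate 3 or RASv12 replicate 2, at 0.055 and 0.054.

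The remaining large subunit members were not called. GNL2, a GTPase of the nucleolus, was read at 105, 120 and 123 in control samples and 237, 218 and 110 in RASv12 samples. RASv12 replicate 3 lay within the controls while the others were well above, and the log2 change was 0.58 ± 0.26 (limma adjusted p = 0.15). Without that sample GNL2 was called, at 0.90 (limma adjusted p = 0.0029). RRP1, the relative of RRP1B, was at 0.46 (limma adjusted p = 0.18), with control replicate 3 (75.5) within the RASv12 values (60.2 to 76.8). Without that control sample it was called, at 0.72 (limma adjusted p = 0.021). RRS1, which helps to load the 5S particle, had overlapping groups at -0.21 ± 0.15 (limma adjusted p = 0.37, 95% interval -0.57 to 0.15), and it turned to 0.13 with scaling to the hybridization controls.

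The members were chosen by name, with earlier results of these data known, and not by promoter sequence. RefSeq promoter sequences (GRCh38.p14, 250 bases before to 50 bases after a start site) were matched for 33 of the 39 members. The E-box CACGTG, the letters that MYC with its partner MAX and several other factors bind, was searched on both strands, which read alike. It was found for 16 of the 33 members (48.5%), against 12% of the 9547 measured genes with a promoter and 8.77% of the 27305 genes in the promoter table. A gene counted when any of its promoters held the letters, and 7.26% of the 35116 single promoters did. Of 18 matches, 11 began after the start site, where the sequence ends at 50 bases, and 4 of the 7 upstream matches began within 50 bases of it. Positions were not compared with those in other genes. It was found for 8 of 15 called members (53.3%) and 6 of 13 uncalled ones (46.2%), a difference that was not tested. Of all genes called higher, 14.9% held it. Median GC content was 62.2% for the members and 63.3% for the measured genes.

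The windows of 30 bases around the E-box (capitals, on the strand of the gene) are shown for members that rose, other than NOP2, whose match at 36 lies too near the end of the sequence, with the first base of the motif counted from the start site. DDX21 holds it before the start, RRP9 across the start, and PNO1, MRTO4, BYSL and WDR43 after it, all on GRCh38.p14. The 2 matches of NOP10 are shown separately.
PNO1 (chr2:68157885-68157914, + strand, first base at 10): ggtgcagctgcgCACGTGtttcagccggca
DDX21 (chr10:68956604-68956633, + strand, first base at -31): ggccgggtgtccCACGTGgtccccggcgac
RRP9 (chr3:51941892-51941921, - strand, first base at -5): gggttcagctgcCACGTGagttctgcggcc
MRTO4 (chr1:19251807-19251836, + strand, first base at 15): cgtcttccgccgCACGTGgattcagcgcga
BYSL (chr6:41921515-41921544, + strand, first base at 29): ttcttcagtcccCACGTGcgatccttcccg
WDR43 (chr2:28894658-28894687, + strand, first base at 4): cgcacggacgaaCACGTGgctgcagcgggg

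Of the 6 measured members that hold it and were not called, 4 windows are shown for comparison. The others are GAR1, with the first base at 32, and UTP14A, at -241.
FBL (chr19:39846356-39846385, - strand, first base at 7): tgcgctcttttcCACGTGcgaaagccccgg
UTP20 (chr12:101280083-101280112, + strand, first base at -10): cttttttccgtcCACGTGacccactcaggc
GNL2 (chr1:37595917-37595946, - strand, first base at 4): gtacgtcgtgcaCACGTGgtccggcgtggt
PES1 (chr22:30591880-30591909, - strand, first base at 14): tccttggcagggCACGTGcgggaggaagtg

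The 200 bases before the NOP10 start site (chr15:34343137-34343336, - strand, GRCh38.p14) are shown because they hold both of its E-boxes and, between them, the letters ACTTCCGG, the ETS site CCGGAAGT read on the other strand. Capitals mark these 3 matches.
NOP10: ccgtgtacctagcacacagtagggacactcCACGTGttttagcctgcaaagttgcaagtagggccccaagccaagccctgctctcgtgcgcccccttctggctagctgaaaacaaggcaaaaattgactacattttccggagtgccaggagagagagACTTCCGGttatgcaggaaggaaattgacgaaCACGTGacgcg

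A match is a description of these letters and not evidence that a factor was bound in these cells. MYC, which is known to bind E-boxes of many such genes, was read at 97.1, 118 and 104 in control samples and 426, 423 and 329 in RASv12 samples. Its groups did not overlap, and it rose by 1.74 ± 0.13 (limma adjusted p = 1.0e-04). CDKN2A, whose ARF product is known to restrain ribosomal RNA synthesis through NPM1 and other partners, was read at 201, 184 and 175 in control samples and 292, 315 and 259 in RASv12 samples. It rose by 0.58 ± 0.11 (limma adjusted p = 0.0066), and its p16 and ARF transcripts were not told apart here.

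**Figure D3:**
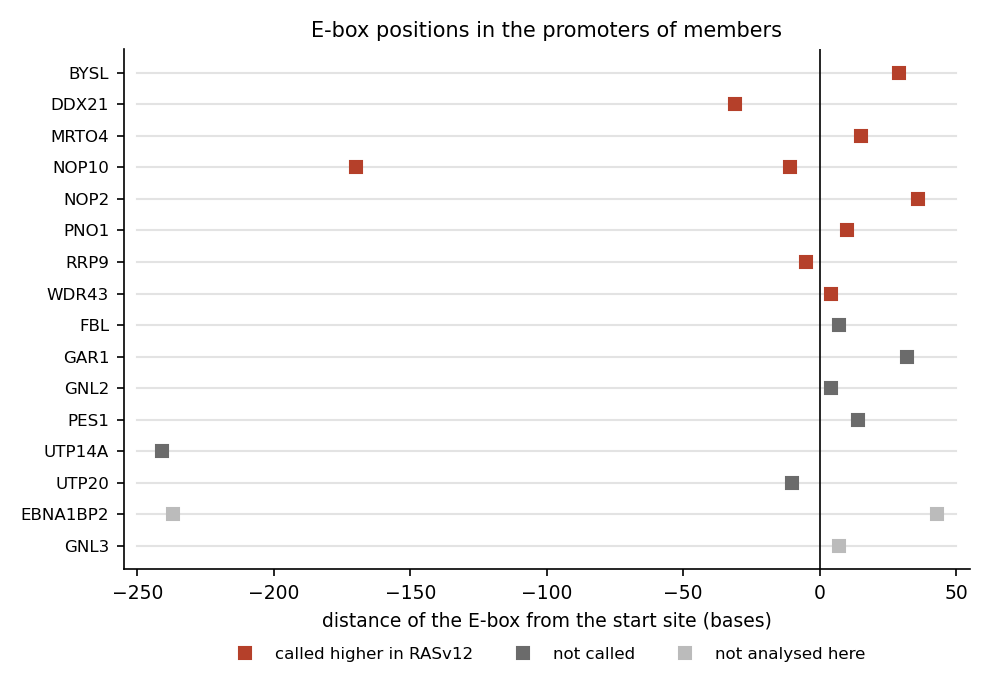
Position of the first base of each CACGTG match relative to the start site (x axis, bases) in the promoters of the 16 members that hold one, 1 line per gene. Of 18 matches, 11 lie after the start, where the sequence ends at 50 bases, and 7 before it, for the 8 members called higher (red), the 6 measured and not called (dark grey) and the 2 not analysed here (light grey).

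Elsewhere in the pathway, rises were called mainly among the assembly genes of both subunits. Over 130 other ribosome biogenesis genes measured, 49 rose (37.7%) and 6 fell (4.62%), against 14.0% and 15.5% of all genes. Their median log2 change was 0.25. Under a model with the replicate number as a block 31 of the 130 rose, against 10.2% of all genes. With scaling to the hybridization controls 77 of the 130 did, against 23.6%.

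Small subunit processome and 40S maturation genes had 18 of 43 higher (41.9%) and none lower by limma, against 14.0% and 15.5% of all genes (median 0.28). At an unadjusted p under 0.05, 22 of the 43 were higher and none lower, against 19.5% and 19.8% of all genes. IMP4 and IMP3, proteins of the U3 complex that pair the snoRNA with its target, rose by 1.03 ± 0.095 and 1.11 ± 0.11 (limma adjusted p = 2.8e-04 and 3.5e-04). Large subunit genes had 21 of 42 higher and 1 lower (median 0.38). TEX10, part of a complex that processes the spacer of the precursor, rose by 0.81 ± 0.089, and EFL1, a GTPase that frees the 60S subunit in the cytoplasm, by 0.97 ± 0.13 (limma adjusted p = 6.8e-04 and 0.0014). The gene that fell in this list was NOL8, a nucleolar protein, at -0.75 (limma adjusted p = 0.0095).

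The list of nucleases that trim ribosomal RNA, with their subunits and cofactors, had 22 measured genes. Of these, 8 were higher (36.4%) and 4 lower (18.2%), against 14.0% and 15.5% of all genes (median 0.17). EXOSC4, a subunit of the RNA exosome ring, was read at 148, 149 and 138 in control samples and 440, 396 and 398 in RASv12 samples, and rose by 1.40 ± 0.091 (limma adjusted p = 5.6e-05). EXOSC8, a subunit of the same ring, was read at 146, 135 and 124 in control samples and 63.7, 54.3 and 43.1 in RASv12 samples, and fell by 1.10 on the log2 scale (SE 0.16, limma adjusted p = 0.0026). Both had groups well apart, in opposite directions. The exonuclease ISG20L2 rose by 0.76, and the poly(A)-specific ribonuclease PARN was at -0.81 (limma adjusted p = 0.0015 and 0.0017).

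Other RNA polymerase I subunits and initiation factors had 2 of 14 higher (14.3%) and 1 lower (7.14%), near or under the 14.0% and 15.5% of all genes (median -0.0063). Those called were subunits shared by several RNA polymerases, POLR2H (0.72) and POLR2F (0.87) higher and POLR2E (-0.31) lower. POLR2E lost its call when any 1 of the 6 samples was left out, and turned to 0.047 with scaling to the hybridization controls. Of 9 snoRNP assembly factors none was called by limma, against 29.5% of all genes in either direction (median 0.069). At an unadjusted p under 0.05, 3 of the 9 were higher and none lower, against 19.5% and 19.8% of all genes. Among 5 measured genes of subunit export and of the 5S particle, the export adaptor NXT1 rose by 0.70 and the exportin XPO1 was at -0.61 (limma adjusted p = 0.0029 and 0.038). XPO1 lost its call without control replicate 1 or 3 or RASv12 replicate 2 or 3, at adjusted p from 0.076 to 0.11.

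The measured genes for proteins of the ribosome itself mostly stayed close to 0. The list held only genes with a probe set that carried no other symbol, so ribosomal protein genes without one were not analysed here. Of 52 measured cytosolic ribosomal protein genes, none rose and 2 fell (3.85%) by limma, against 14.0% and 15.5% of all genes, at a median of -0.060. At an unadjusted p under 0.05, 1 of the 52 was higher and 5 were lower, against 19.5% and 19.8% of all genes. The 1 higher, RPLP2, was above the low bacterial controls on no control array and 1 RASv12 array. RPL19 fell by 0.62 on the log2 scale, from 3044, 3162 and 3334 in control samples to 2142, 2119 and 1983 in RASv12 samples (limma adjusted p = 0.0017). RPL3 was at -0.36 (limma adjusted p = 0.031) and lost its call without control replicate 1 or 3 or RASv12 replicate 2 or 3. Scaled to the hybridization controls, their median turned to 0.28, so that their direction depends on the scale. Under that scaling 12 of the 52 rose and none fell, against 23.6% and 8.8% of all genes. RPL19 was then at -0.27 (limma adjusted p = 0.071). Many are among the brightest probe sets and have processed pseudogenes that share their sequence, so single members are uncertain. The E-box was found for 3 of 46 of them (6.52%) and for 28 of 112 other ribosome biogenesis genes (25%).

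**Figure D4:**
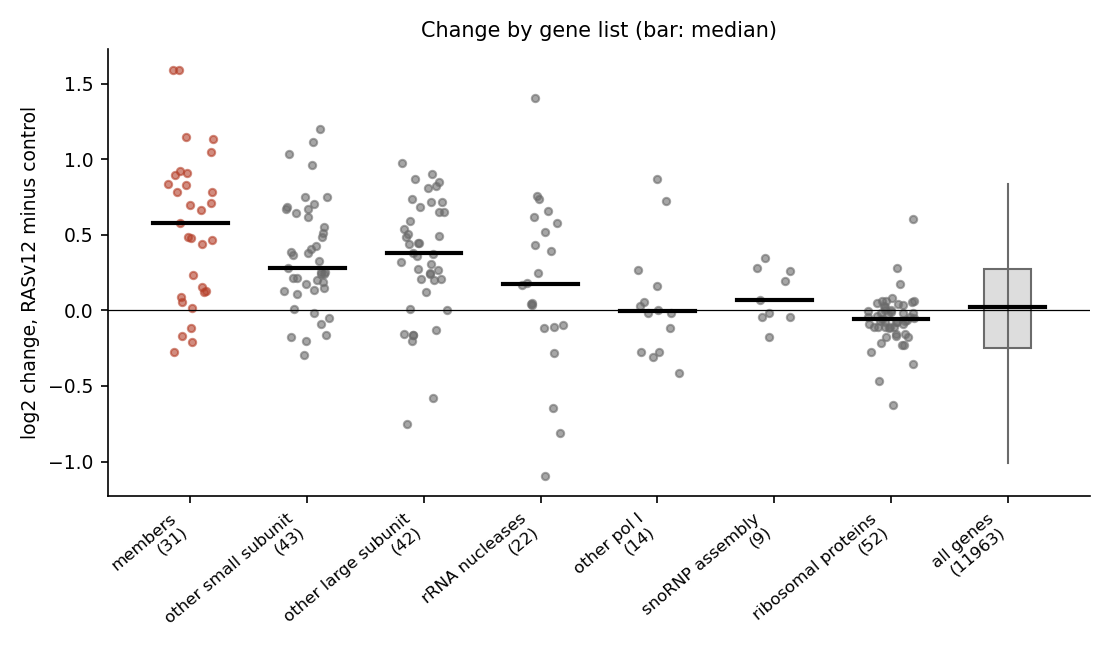
Log2 change, RASv12 minus control, of each measured gene (points) in the members and in 6 other lists, with the median as a bar; all 11963 genes are drawn as a box of the middle 50% with lines to the 5th and 95th percentile. The medians fall from 0.58 for the members through 0.38 and 0.28 for the other large and small subunit genes to -0.060 for ribosomal proteins, beside 0.020 for all genes.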

How the data were processed

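The authors deposited 1 table of linear signal intensity per probe set for 6 arrays (3 control, 3 RASv12). Per the submitters' processing notes the values came from MAS5, the Affymetrix summary of a probe set. Version and target were not stated there. The mean after trimming 2% at each end was 100.0 on every array.

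Of 22283 probe sets, 68 controls were left out. Symbols came from the platform annotation, updated through RefSeq (GRCh38.p14); 1043 probe sets with several symbols and 2107 without one were not named. The brightest probe set stood for each of 11963 genes. Values were taken as log2(intensity + 16), quantile normalized and tested with limma 3.58.1 in R 4.3.3 (lmFit, eBayes), with Benjamini-Hochberg adjustment over all genes, a threshold of 0.05 and no filter on dim probe sets. The procedure was tested on simulated data, where most changes of 2-fold and none of the smaller size tried were recovered. The simulated data held far fewer changed genes than were called here, so that recovery does not carry over to these data. Smaller changes were called here, such as those of WDR43 (0.49) and RRP1B (0.48). A member not called may still have changed. Precision is limited by the 3 arrays per group.

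The members, gene lists and tests were chosen with earlier results of these data known. Values per array are given for the 3 called members with the largest moderated t in each role and direction, and for FBL, NCL, NPM1, UBTF and POLR1B; other lists name the 2 largest in each direction. Per-array values of PES1, GNL2, EXOSC4, EXOSC8 and RPL19 were added after their values were seen. Alternatives were other pseudocounts (1 and 64), scalings, filters on dim probe sets, the mean of probe sets, a variance trend, a replicate block and leaving out each array.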

Additional observations from a re-analysis of the deposited data

Results flagged for a closer look

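Among control probe sets outside the comparison, 12 read ribosomal RNA itself, 6 for 18S and 6 for 28S. One 28S probe set for the middle of the molecule was read at 270, 331 and 209 in control samples and 503, 498 and 610 in RASv12 samples, so that every RASv12 sample lay above every control sample. Its mean intensity was 1.99 times the control mean (exact two-sided permutation p = 0.1, the smallest that 3 against 3 samples allow). The other 28S probe set for the middle read 31.8, 23.6 and 21.1 in control and 3.04, 25.3 and 23.7 in RASv12 samples, within or near the low bacterial controls. Of the 12 probe sets, 1 was apart upwards, 1 (an 18S probe set, from 48.8 to 27.7) downwards, and 10 overlapped. Of all genes, 19.7% were apart upwards and 22.0% downwards. The first 28S probe set was picked because it was apart upwards and above the low bacterial controls in RASv12 samples. Amounts of ribosomal RNA per cell cannot be read from amplified and scaled arrays.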

How the results depend on the processing

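The count of members that rose ran from 16 to 24 of 31 over the 10 alternatives that kept all 6 samples. None fell in any of them. Of all genes, 10.2% to 23.6% rose and 8.8% to 26.1% fell in these settings. Scaling to the hybridization controls gave the 24, adding GAR1, GNL2, NCL, NHP2, NPM1, PES1 and RRP1. Leaving out 1 sample gave 15 to 18 members higher and 0 to 1 lower, the 1 being UBTF without RASv12 replicate 1. Of all genes, 9.91% to 13.7% then rose and 11.9% to 14.6% fell. Of 496 values of single members under an alternative, 466 kept their direction and their side of the threshold, 7 lost a call, 16 gained one and 7 turned in sign, all of them for members not called under either setting. With scaling to the hybridization controls these were FBL (0.18), RRS1 (0.13) and POLR1B (0.082). The others were POLR1B without control replicate 1 (0.041), NPM1 without control replicate 2 (-0.056) or 3 (-0.012) and UTP14A without RASv12 replicate 1 (-0.053). Leaving out 1 sample gave -0.21 to 0.041 for POLR1B, -0.056 to 0.11 for NPM1 and -0.053 to 0.20 for UTP14A. PES1 gained its call under 6 of those 10 alternatives and without RASv12 replicate 3, and NIP7 and BRIX1 were the members that lost theirs.

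Over all genes, scaling to the hybridization controls gave 2827 higher and 1053 lower, against 1670 and 1860, and 77 other ribosome biogenesis genes higher against 49. Ribosomal protein genes, at 2 lower, were sensitive to most settings. The count was 1 with a pseudocount of 1, on the values as deposited and with median centring (1 higher as well). It was 5 with a pseudocount of 64 or a mean-variance trend, and 4 without the dimmest 50% of probe sets or with the mean of a gene's probe sets. With scaling to the hybridization controls 12 were higher and 0 lower. Leaving out 1 sample gave 1 to 2 lower. POLR2E reversed to 0.047 with that scaling (limma adjusted p = 0.75). The cause of these differences was not tested.

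Both groups use replicate numbers 1 to 3. Deviations from group means correlated at -0.21, -0.046 and -0.065 between samples of the same number, so the numbers were not taken to pair the samples. With the replicate block 16 members rose, without NIP7 (limma adjusted p = 0.053), 31 other ribosome biogenesis genes rose and 1 ribosomal protein gene fell. Of the 31 members, 30 lay above the low bacterial controls on all 6 arrays, so signal over background limits BRIX1 most.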

Other observations

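Other promoter letters were searched on both strands in the same windows, with no test. The ETS site CCGGAAGT was found for 7 of 33 members (21.2%). Of these, DDX21, POLR1C, RRN3 and NOP10 were called higher, GAR1 and POLR1B were not called, and EBNA1BP2 was not analysed here. The site was also found for 28 of 112 other ribosome biogenesis genes (25%), 9 of 46 ribosomal protein genes (19.6%) and 7.48% of measured genes. The GC box GGGCGG was found for 25 of 33 members (75.8%), against 69.8% of measured genes, and CCAAT for 14 (42.4%), against 44.2%. TATAAA was found for 1 member (3.03%), against 11.6% of measured genes.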
